A study of Homo sapiens with 20 samples.

Results

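HDAC4 silencing in untreated, FBXW7 wild-type (WT) HCT-116 cells was examined through the H3K27ac regions that 1 arm called in both of its libraries and the other arm called in neither. Peaks of the 2 WT esiHDAC4 UNT libraries and the 2 WT esiCT UNT libraries (replicates A and B of each) on chromosomes 1 to 22 and X were merged wherever they shared at least 1 bp, which gave 38709 regions. Of these, 271 were called in both esiHDAC4 libraries and in neither esiCT library and are termed gained, and 1424 were called in both esiCT libraries and in neither esiHDAC4 library and are termed lost. The 1695 gained and lost regions together are the members described here, beside the 10319 regions called in all 4 libraries. Among super-enhancers (SEs) merged in the same way, 4 of 1450 regions were gained and 100 were lost.

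HCT-116 is a human colorectal cancer line. The cells of both arms carried wild-type FBXW7 and had received esiRNAs, pools of short interfering RNAs made enzymatically from a longer RNA, for 48 h. The esiCT arm received a control pool, the esiHDAC4 arm a pool against HDAC4, and neither received oxaliplatin (OXPT). The study's methods describe the paired libraries as biological replicates. The labels state that 3 experiments were put together, and neither source says how these relate to the letters A and B. The whole series holds 16 libraries in 8 groups, with FBXW7 knockout (KO) cells and 50 µM OXPT as the other factors. A ChIP-seq list holds no transcript level, so the depletion of HDAC4 itself could not be checked in these libraries.

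H3K27ac is acetylation of lysine 27 on histone H3 and is found on the nucleosomes that flank active promoters and enhancers. Acetyltransferases such as p300 and CBP place it and histone deacetylases remove it. HDAC4 belongs to the class IIa deacetylases, which have little catalytic activity of their own on histones, are tethered to DNA by factors such as MEF2, and recruit co-repressor complexes that hold HDAC3. An SE is a cluster of neighbouring enhancers with a very high summed H3K27ac signal, usually near genes that are important for the identity of the cell.

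The sequence under the summit is shown for 6 regions, as windows made of the summit base of the highest peak and 100 bases on each side. They were picked as examples and span a wider range of base composition than the medians of gained and lost regions given further on. All are the plus strand of hg38 and none overlaps an exon of a protein-coding gene. The first 3 are gained. SPIN3, whose product belongs to the spindlin family of histone readers, is shown at chrX:56996046-56996246 with its single CpG in capitals, since it is the strongest gained start-site region outside an exon and has a GC content of 31.8%. TNS3, coding for a focal adhesion protein, is shown at chr7:47475628-47475828, in an intron, with a match to the AP-1-like pattern TGANTCA in capitals. The middle letter of this pattern was left free, and here it is A, where the usual AP-1 site has C or G. RAD51B, a gene of homologous recombination, is shown at chr14:67934454-67934654, in an intron, with a match to the MEF2 motif in capitals, since MEF2 factors bind class IIa HDACs.
SPIN3 gained: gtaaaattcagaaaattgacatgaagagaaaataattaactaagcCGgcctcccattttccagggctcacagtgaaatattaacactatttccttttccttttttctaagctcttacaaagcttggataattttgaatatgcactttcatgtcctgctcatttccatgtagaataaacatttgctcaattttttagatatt
TNS3 gained: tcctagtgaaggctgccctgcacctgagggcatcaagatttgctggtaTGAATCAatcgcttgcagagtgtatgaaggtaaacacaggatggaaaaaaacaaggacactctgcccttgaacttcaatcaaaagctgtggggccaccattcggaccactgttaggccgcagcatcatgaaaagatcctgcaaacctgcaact
RAD51B gained: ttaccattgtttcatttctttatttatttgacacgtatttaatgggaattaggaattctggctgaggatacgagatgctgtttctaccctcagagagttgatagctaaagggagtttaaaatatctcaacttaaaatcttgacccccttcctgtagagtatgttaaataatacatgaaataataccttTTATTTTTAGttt

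The other 3 windows are from lost regions. TGFBR1, the type I receptor for TGF-beta, is shown at chr9:99105651-99105851, within 1 kb of a start site, with its 19 CpGs in capitals and a GC content of 74.1%. HDAC4 is shown at chr2:239069916-239070116, in an intron of the silenced gene, with its 4 CpGs in capitals. SLC2A1, coding for the glucose transporter GLUT1, is shown at chr1:42933407-42933607, in an intron, with a match to the AP-1-like pattern in capitals, its middle letter T. A match is a run of letters in the reference genome and does not show that a factor was bound.
TGFBR1 lost: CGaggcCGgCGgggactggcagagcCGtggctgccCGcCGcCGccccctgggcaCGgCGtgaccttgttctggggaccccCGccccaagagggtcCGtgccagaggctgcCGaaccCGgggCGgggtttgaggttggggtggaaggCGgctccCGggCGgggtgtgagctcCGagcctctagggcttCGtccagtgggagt
HDAC4 lost: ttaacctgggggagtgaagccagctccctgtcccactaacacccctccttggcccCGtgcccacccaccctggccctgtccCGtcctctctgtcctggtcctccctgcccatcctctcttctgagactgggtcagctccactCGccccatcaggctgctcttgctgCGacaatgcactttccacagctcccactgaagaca
SLC2A1 lost: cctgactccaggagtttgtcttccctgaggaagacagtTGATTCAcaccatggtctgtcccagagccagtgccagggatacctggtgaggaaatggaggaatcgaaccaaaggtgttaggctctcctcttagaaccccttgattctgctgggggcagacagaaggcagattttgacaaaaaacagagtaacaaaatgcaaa

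The 4 peak lists differed in length, within the esiHDAC4 arm about as much as between the arms in letter A. The esiCT libraries had 27927 peaks in A and 25333 in B, and the esiHDAC4 libraries had 20234 in A and 27335 in B. The log2 ratio of esiHDAC4 to esiCT was −0.46 in A and 0.11 in B, with a mean of −0.18 ± 0.41 (SD, n = 2 letters), and the exact permutation test exchanging labels within letters gave p = 1.0, two-sided, where the smallest p that 2 letters allow is 0.5. The silenced arm therefore had the shorter list in A and the longer one in B. The lowest recurring background value of the peaks, recovered from fold and p as a measure of depth, was 1.95 reads in esiCT A, 1.65 in esiHDAC4 A, 3.07 in esiCT B and 2.82 in esiHDAC4 B. By this measure the esiCT library was the deeper one in both letters. Read totals are not in the lists, so the order of depth is inferred. Counts of gained and lost regions with summit reads scaled to the shallowest library, and with lists of equal length, are given near the end. The part of depth in the other results was not tested.

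The number of SEs was lower after silencing in both letters. The esiCT libraries held 758 SEs in A and 1265 in B, against 511 and 771 in the esiHDAC4 libraries, log2 ratios of −0.57 and −0.71. The mean was −0.64 ± 0.10 (SD, n = 2 letters), with p = 0.5 in the two-sided exact permutation test, which is the smallest that 2 letters allow. Peaks of high confidence followed the same order. Peaks with −log10 q of at least 10 numbered 5121 in esiCT A against 946 in esiHDAC4 A, and 4368 in esiCT B against 2817 in esiHDAC4 B, so that the mean log2 ratio was −1.54 with p = 0.5 in the exact permutation test. A q-value depends on depth as well as on enrichment.

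The cells showed the H3K27ac pattern of an epithelial line in all 4 libraries. Of the epithelial markers EPCAM, CDH1, KRT8, KRT18, KRT19 and ELF3, 6 of 6 had at least 1 peak in every library, with the start-site fold of EPCAM at 9.05 and 5.05 in the esiCT libraries and 5.69 and 5.50 in the esiHDAC4 libraries. ELF3, an epithelial transcription factor, lay in an SE in all 4. Among 8 markers of blood, stromal and endothelial cells, CD3E, SPI1 and HBB had 0 peaks in every library, PTPRC had 1 peak in esiCT A, and PDGFRB had 1 in esiHDAC4 B. PECAM1 and CDH5 had peaks in all 4 libraries and none at a start site, whereas COL1A1 had a start-site peak in all 4.

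**Figure D1:**
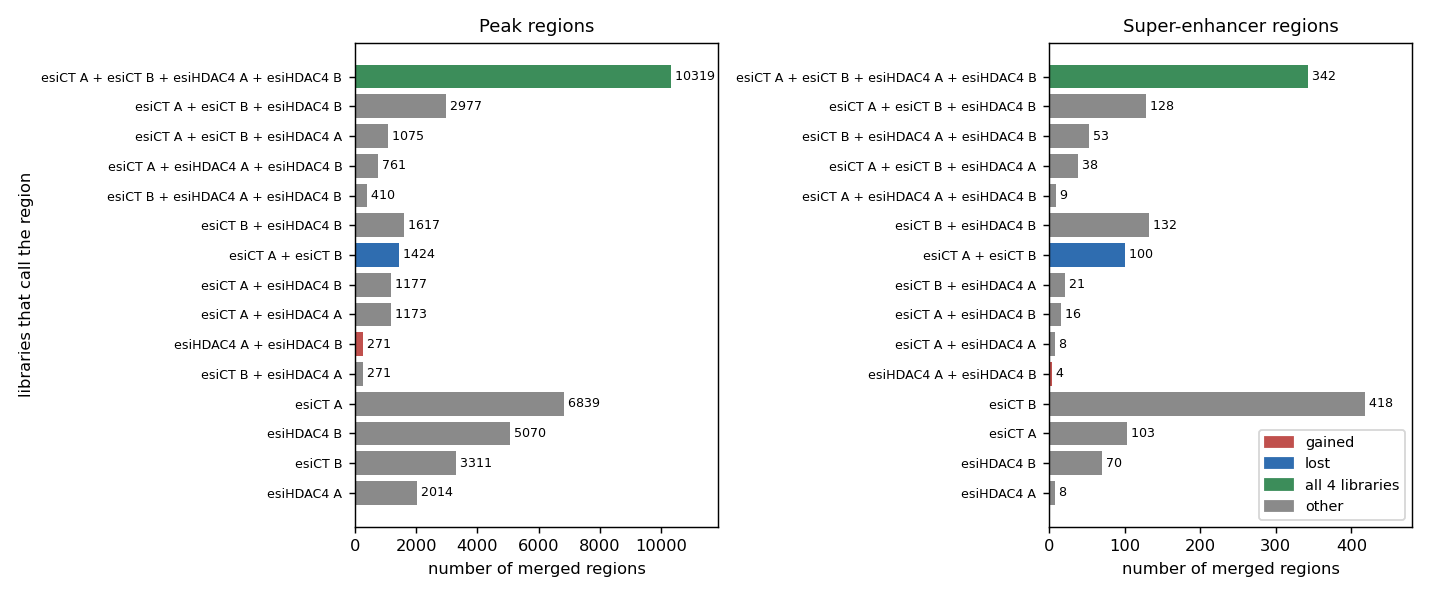
Number of merged peak regions (left) and SE regions (right) for each set of libraries that called them, with gained regions in red, lost in blue and regions called in all 4 libraries in green. Gained regions (271 of the peak regions and 4 of the SE regions) form short bars beside lost ones (1424 and 100), and the pair esiCT B with esiHDAC4 A holds as many peak regions as the gained pair.

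Lost regions outnumbered gained ones. The lost regions made up 3.68% of the 38709 merged regions and the gained ones 0.7%. Regions called in exactly 2 libraries fell into 6 sets of between 271 and 1617 regions, and the lost and gained sets lay within that range, the gained one at its lower end together with the 271 regions called by esiCT B and esiHDAC4 A. In letter A alone 12417 regions were called only with esiCT and 2966 only with esiHDAC4, whereas in letter B alone the counts were 6081 and 7279, so that the order turned between the letters. With −log10 q of at least 10, 894 regions were lost and 9 gained. The overlap of the lists in bp (Jaccard index) was 0.469 between the esiCT libraries and 0.384 between the esiHDAC4 libraries, while esiCT B and esiHDAC4 B, which share a letter and not a treatment, had 0.516. The bar chart of library sets shows all 15 combinations. A library without a peak has no value in these lists, and it may hold acetylation under the calling threshold. In a population of cells, fewer cells with the mark and less mark per cell cannot be told apart.

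Gained and lost regions were narrow and weakly enriched beside regions common to the 4 libraries, as were most regions not called in all 4. The median width was 583 bp for gained regions, with a range of 286 to 1640 bp, and 684 bp for lost ones, with a range of 291 to 2389 bp, against 1781 bp for the common regions and 628 bp for all 38709. Summit fold compares the read pileup at a peak's highest point with the background around it, as deposited. In gained regions it had a median of 3.77 in esiHDAC4 A, with a range of 2.06 to 6.44, and of 3.37 in esiHDAC4 B, with a range of 2.12 to 6.28. In lost regions the median was 3.97 in esiCT A, with a range of 2.399 to 8.48, and 3.51 in esiCT B, with a range of 2.10 to 6.67. The median fold, as the geometric mean over the calling libraries, was 3.599 in gained, 3.75 in lost, 4.78 in common and 3.88 in all regions. Of the gained regions, 22 (8.12%) lay above the lower quartile of the common regions, 4.22, and of the lost regions 333 (23.4%) did, beside 21.6% of the 26695 regions of any other pattern. Within 2 kb of a region called in all 4 libraries lay 61 gained regions (22.5%) and 315 lost ones (22.1%), beside 20.7% of those of any other pattern.

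Start-site regions were less frequent among gained than among lost regions. Of the gained regions, 89 (32.8%, Wilson 95% interval 27.5 to 38.6%) lay within 1 kb of a protein-coding start site, against 655 of the lost ones (46.0%, interval 43.4 to 48.6%), 62.4% of the common regions and 39.9% of all 38709. These intervals cover counting error only. The rest of the gained regions were 87 in genes and 95 between genes, and the rest of the lost regions were 387 and 382. Read the other way, 0.576% of start-site regions were gained and 4.24% lost, against 0.776% and 3.45% of regions within genes and 0.788% and 3.17% of regions between genes. Gained regions more than 500 kb from any start site numbered 16 (5.90%), against 25 lost regions (1.76%) and 3.31% of all. No filter for repeated or poorly mapping sequence was applied here, and the part of such sequence in these shares was not tested. Across the chromosomes, between 0.289% (chromosome 13) and 1.10% (chromosome 7) of regions were gained, and between 2.93% (chromosome 14) and 4.77% (chromosome X) were lost, so that every chromosome held members of both kinds.

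The sequence under the summit followed the same division. The summit windows of gained regions had a median GC content of 48.3% and a median of 3 CpGs, those of lost regions 52.7% and 5, and those of all regions 50.2% and 4. At start sites the medians were 53.7% and 7 CpGs in the 89 gained windows against 61.2% and 11 in the 655 lost ones and 60.2% and 10 in all 15440. Motifs were searched on both strands. The AP-1-like pattern TGANTCA, with any middle letter, was found in 15 gained windows (5.54%) and 60 lost ones (4.21%), beside 4.76% of all windows. These counts include sites other than the usual AP-1 site. The MEF2 motif was found in 14 gained windows (5.17%) and 32 lost ones (2.25%), beside 3.10% of all. The TEAD motif GGAATG was found in 7.75% and 10.2%, beside 9.67% of all, and the forkhead motif GTAAACA in 1.85% and 2.67%, beside 2.44%. The CRE motif TGACGTCA, the binding site of CREB and ATF factors, was in 0 gained and 2 lost windows, beside 42 of all 38709. These shares are descriptions without a test. In the windows away from start sites MEF2 matches were in 13 of 182 gained (7.14%) and 20 of 769 lost ones (2.60%), beside 3.98% of all. There the AP-1-like pattern was in 7.14% and 6.24%, beside 6.085% of all, and the TEAD motif in 6.59% and 11.3%, beside 10.4%. The median GC content of these windows was 44.5% in gained, 48.3% in lost and 45.3% in all. The part of base composition in the motif shares was not tested.

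The gained regions with the highest fold were mixed in kind. PTPN23, coding for an endosomal sorting protein of the tyrosine phosphatase family, had the strongest one, at its start site (chr3:47381114-47381463), with folds of 5.75 in esiHDAC4 A and 5.09 in esiHDAC4 B and no peak in either esiCT library. This call ended when peaks within 500 bp were merged. SPIN3 followed with 4.91 and 5.49 (chrX:56995979-56996469). Both were start-site regions, and the remaining 8 of the 10 strongest were not. Away from start sites, 4 lay within genes. KCNIP1, coding for a potassium channel partner, had folds of 4.80 and 4.25 (chr5:170633244-170634209), SLC6A6, the taurine transporter, 4.75 and 4.40 (chr3:14452310-14452780), and OBSL1, a cytoskeletal adaptor, 4.45 and 4.71 (chr2:219550819-219551657). TNS3 had 4.04 and 5.48, and 3 other regions of the same gene were among the lost ones.

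The other 4 of the 10 strongest gained regions lay between genes. The one named by EMB, 885 kb from its start site (chr5:49543106-49543589), had folds of 4.14 and 6.28. The one named by ALG10 was 884 kb away (chr12:34906929-34907309), with 4.29 and 5.26, and the one named by SRGAP2C was 3285 kb away (chr1:124471964-124472385), with 4.15 and 4.97. FAM25C, a member of a duplicated gene family, named the fourth at 13.15 kb (chr10:47986138-47986643), with 4.56 and 4.95. The lists were not filtered here for repeated or poorly mapping sequence. Whether reads at these 4 positions were placed correctly was not tested, and the naming gene is only the nearest one. With −log10 q of at least 10, the call of each of the 10 strongest gained regions ended. When peaks within 500 bp were merged those of PTPN23 and OBSL1 did, and when regions were merged over all 16 lists that of OBSL1 did.

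Most of the strongest lost regions were at start sites. DVL1, a transducer of WNT signals, had the highest, with folds of 7.86 in esiCT A and 5.96 in esiCT B and no peak in the esiHDAC4 libraries. This call ended when peaks within 500 bp were merged and when regions were merged over all 16 lists. MIB1 and MIB2, ubiquitin ligases that act on NOTCH ligands, both had a lost start-site region. That of MIB1 (chr18:21740898-21742394) had folds of 6.91 and 5.403, and that of MIB2 (chr1:1615448-1616435) had 6.95 and 5.04. The divergent start sites of CHCHD4, a mitochondrial import factor, and TMEM43 shared a region (chr3:14123210-14124794) with 8.31 and 5.10, and those of NOL9, an rRNA-processing kinase, and TAS1R1, a taste receptor, shared another (chr1:6553230-6554478) with 7.08 and 5.18. In every region of this paragraph esiCT A was the higher of the pair.

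The remaining strong lost regions covered varied functions. CSTF3, a subunit of the cleavage stimulation factor of mRNA 3′ ends, had folds of 6.92 and 6.08 (chr11:33161751-33162389), CDKN2AIP, a binding partner of ARF, 6.45 and 6.195 (chr4:183443532-183444430), and SLC6A9, the glycine transporter, 7.69 and 4.85 (chr1:44029633-44031377). These 3 were start-site regions. MATN1, a cartilage matrix protein, had a region 3.81 kb from its start (chr1:30718841-30719777) with 7.26 and 6.38. The last, between genes on chromosome 9 and named by FOXD4L5 at 1948 kb (chr9:63337121-63337517), had 6.11 and 6.67. Read placement at that position was not tested. With −log10 q of at least 10, 7 of the 10 calls ended, and those of DVL1, CSTF3 and MATN1 did not. When peaks within 500 bp were merged, 5 ended, those of DVL1, CHCHD4, CSTF3, FOXD4L5 and MIB2. Of the 10, 8 lay at start sites against 2 of the 10 strongest gained regions.

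**Figure D2:**
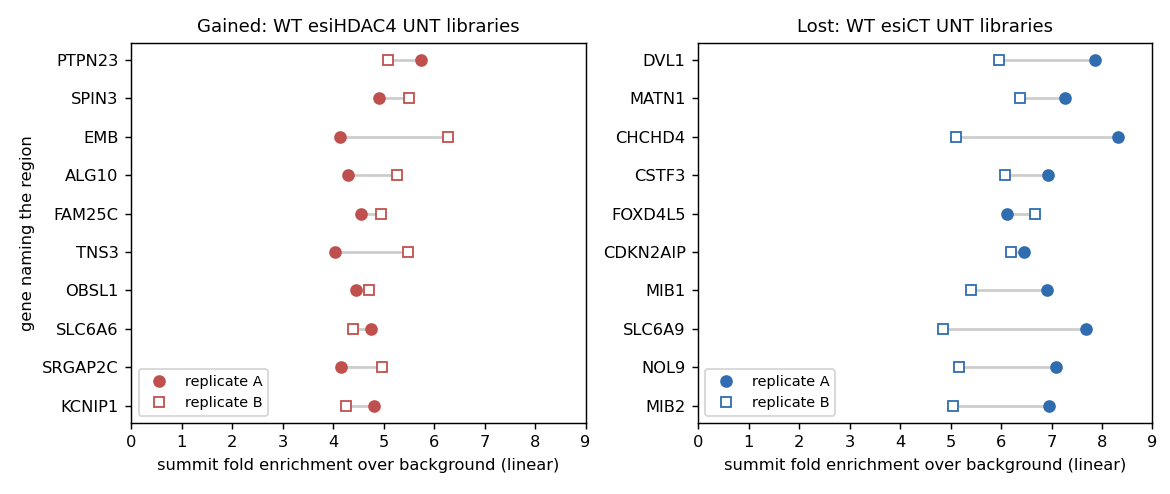
Summit fold enrichment (linear scale) of the 10 strongest gained regions in the 2 WT esiHDAC4 UNT libraries and of the 10 strongest lost regions in the 2 WT esiCT UNT libraries, replicate A as filled circles and replicate B as open squares, named by gene. Gained regions lie between 4.04 and 6.28 and lost ones between 4.85 and 8.31, with replicate A higher in 9 of the 10 lost regions.

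The class IIa HDAC, MEF2 and co-repressor genes each had at least 1 region common to the 4 libraries. A gene was assigned every region within 10 kb of its body. Of 19962 protein-coding genes, 1552 (7.77%) had a lost region and 273 (1.37%) a gained one. Only 14458 of them had a merged region of any kind. In most lists below a larger part of the genes had one, so these shares are a low background for the lists. Of the 13 genes of the class IIa HDAC, MEF2 and co-repressor list, 13 had a region common to the 4 libraries, 3 had a lost region and 0 a gained one. HDAC4 and MEF2D were among the 3. Peaks over the HDAC4 gene numbered 10 in esiCT A, 17 in esiCT B, 10 in esiHDAC4 A and 15 in esiHDAC4 B, with start-site folds of 5.04, 4.17, 3.77 and 3.98, and the gene lay in an SE in all 4 libraries. Its 2 lost regions were intronic, one (chr2:239069794-239070203) with folds of 4.53 and 4.77 and the other (chr2:239281347-239281828) with 3.88 and 4.77 in the esiCT libraries, and no other library of the series called either.

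MEF2D, a MEF2 factor, lost a region at a start site (chr1:156490275-156491126) with folds of 3.96 and 4.29, while its highest start-site fold was 4.66 and 6.30 in the esiCT libraries and 4.71 and 4.47 in the esiHDAC4 libraries. MEF2D therefore still had start-site peaks in the silenced arm. Among 20 reported MEF2 and class IIa HDAC target genes, 4 had a lost region and 0 a gained one. BDNF, a neurotrophin, had folds of 4.53 and 3.83, HMOX1, a haem-degrading enzyme, 2.92 and 4.69, and TXNIP, an inhibitor of thioredoxin, 4.15 and 2.91. The region of FOSL1, an AP-1 subunit, lay at the start site of its neighbour FIBP, with 3.87 and 3.34. A gained region 13.16 kb from the start site of HMOX1, beyond the 10 kb limit and added after its values were seen, had 4.41 and 3.59, so that both kinds lay near this gene.

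In the TGF-beta list, 4 of 15 genes (26.7%) had a lost region and 0 a gained one. TGFBR1 had folds of 6.93 and 3.87 at its start site, and SMAD7, the inhibitory SMAD, 4.76 and 3.07. TGFBR2, the type II receptor, had 3.54 and 3.06 in an intron. In the YAP and TEAD list, 3 of 15 genes (20.0%) had a lost region and 1 a gained one. TEAD1 had 3 lost intronic regions with folds between 3.27 and 5.48, YAP1 had one with 3.57 and 4.05, and WWTR1, coding for TAZ, had one with 4.80 and 3.18. AMOTL2, an angiomotin that holds YAP in the cytoplasm, had a gained start-site region (chr3:134375365-134375893) with 3.95 and 3.16.

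In the WNT list, 3 of 20 genes had a lost region and 2 a gained one. The gained regions were at 2 feedback inhibitors, ZNRF3, a ubiquitin ligase that removes frizzled receptors, with folds of 3.97 and 3.58, and NOTUM, a secreted WNT deacylase, with 3.38 and 2.77. The lost ones were at EPHB2, a receptor of the crypt base, with 4.11 and 3.81, at TCF7L2, a nuclear partner of beta-catenin, with 2.41 and 3.33, and at MYC, with 2.82 and 4.07. RNF43, the partner of ZNRF3, had neither kind, and its peaks numbered 21 and 18 in the esiCT libraries and 22 and 19 in the esiHDAC4 libraries. Its start-site fold was 6.91 and 8.28 in the esiCT libraries against 5.32 and 7.62 in the esiHDAC4 libraries.

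Among genes of epithelial identity, EHF held both kinds. EHF, an epithelial ETS factor, had 1 gained intronic region (chr11:34640361-34640953) with folds of 3.62 and 2.87, and 2 lost ones, one at its start site with 3.85 and 3.61 and the other in an intron with 3.46 and 2.495. Together 2 of the 18 intestinal factors had a lost region and 1 a gained one. Of 17 junction and keratin genes, OCLN, coding for occludin, had a lost region at the start site of its neighbour GTF2H2C, with 3.05 and 4.29, and CLDN4, a claudin, had a gained one in the neighbouring METTL27, with 3.75 and 3.97. Of 16 mesenchymal and matrix genes, 0 had a lost and 0 a gained region.

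Of the 20 p53 target genes, 1 had a lost region, PMAIP1, which codes for the BH3-only protein NOXA, with folds of 6.05 and 3.15 at its start site (chr18:59899173-59899798). PMAIP1 still had 1 peak in esiHDAC4 A and 3 in esiHDAC4 B, the highest with folds of 5.37 and 6.06. In esiCT A and B it had 3 and 5 peaks, the highest with 6.05 and 4.03. The highest fold was thus lower after silencing in A and higher in B. BBC3, a relative of PMAIP1 that codes for PUMA, had neither kind, with 4, 7, 4 and 7 peaks in esiCT A, esiCT B, esiHDAC4 A and esiHDAC4 B. In the same order its start-site folds were 5.2, 4.23, 5.55 and 5.10, and its highest folds 7.08, 4.53, 5.55 and 5.10. BCL2L1, the anti-apoptotic BCL-XL, was the 1 gene of 16 in the BCL2 family list with a gained region, which lay nearer to COX4I2, with 4.34 and 3.79. Among 18 glycolysis genes 3 (16.7%) had a lost region and 0 a gained one, with 2 at SLC2A1 (3.22 and 3.39, then 3.32 and 2.71), 1 at SLC2A3, the glucose transporter GLUT3 (3.32 and 3.96), and 1 near GPI, the glucose-6-phosphate isomerase, at the start site of its neighbour PDCD2L (4.90 and 3.19).

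In homologous recombination, RAD51B had 4 lost regions and 1 gained one, and RBBP8, coding for the end-resection factor CtIP, had a lost start-site region with folds of 3.22 and 3.09. They were the 2 of 15 listed genes (13.3%) with a lost region. The gained region of RAD51B (chr14:67934299-67934741) had 6.44 in esiHDAC4 A and 2.77 in esiHDAC4 B, the widest gap between replicates among the list regions that were gained. Of 14 AP-1 and ATF genes, FOSL2 and FOSL1 had a lost region and 0 had a gained one, FOSL2 with 3.33 and 2.91. In the lists of other cell types, 1 of 12 immune and blood markers (CD4, nearer to P3H3) and 2 of 13 fibroblast and endothelial markers (VWF and CDH5) had a lost region, with 0 gained in both. These lists were shorter than 21 genes, so a single gene moves a share by 5% or more, and no share was tested against the background of 7.77% and 1.37%. That background also counts genes without any merged region.

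SE calls were lost far more often than gained. Of the 1450 merged SE regions, 100 (6.9%) were lost and 4 (0.276%) gained, with 342 called in all 4 libraries. The regions with an SE in 1 library only included 418 in esiCT B, the library with the longest SE list. The lost SEs spanned between 3.91 and 51.9 kb with a median of 12.9 kb, against 31.0 kb for those common to the 4 libraries. By position 34 lay at a start site, 28 within genes and 38 between genes. An SE call depends on the rank of a stitched cluster within its own library, so an SE can be lost while its peaks remain.

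The lost SEs kept fewer peaks in the silenced arm, and few were without any. The median number of peaks per region was 5 in esiCT A, 2 in esiHDAC4 A, 4 in esiCT B and 3 in esiHDAC4 B, beside 4, 3, 4 and 4 over all 1450 SE regions. Of the 100 regions, 6 had no peak in esiHDAC4 A and 1 had none in esiHDAC4 B. The bp under peaks was lower than in the esiCT library of the same letter in 99 regions in A and 84 in B. Medians per region were 3.90 kb in esiCT A, 1.58 kb in esiHDAC4 A, 2.98 kb in esiCT B and 2.29 kb in esiHDAC4 B. Over all 1450 SE regions the bp was lower in esiHDAC4 in 1342 in A and 1010 in B, so that lower cover was common to most SE regions. The highest summit fold in the lost SEs moved little, by a median log2 ratio of −0.20 in A and −0.05 in B, beside −0.19 and −0.09 over all SE regions. The region without a peak in esiHDAC4 B lay at TBC1D1, and the 6 without one in esiHDAC4 A included those at NKAIN1, ZBTB20, LTBP2, CREB3L1 and DLG5.

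**Figure D3:**
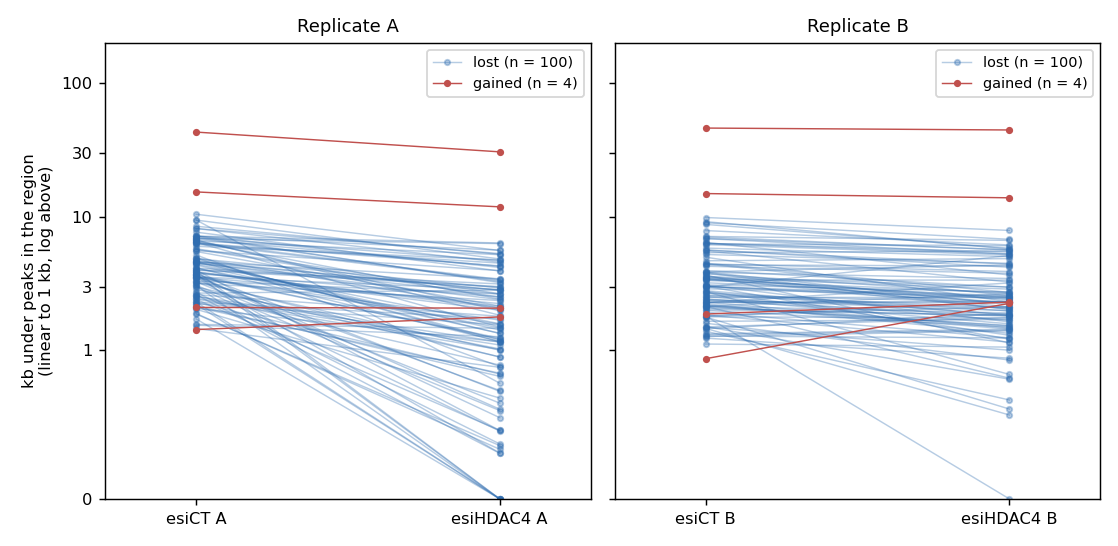
Kilobases under peaks (linear to 1 kb, logarithmic above) in each lost SE region (blue, n = 100) and gained SE region (red, n = 4) in the esiCT and esiHDAC4 libraries of replicate A (left) and replicate B (right), with a line joining the values of 1 region. Lines of lost regions fall in 99 of 100 cases in A and 84 of 100 in B, and the gained regions of CLDND1 and HM13 hold more than 10 kb under peaks in every library.

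The longest lost SE lay in GNG12, a G-protein gamma subunit gene (chr1:67699090-67750960, 51.9 kb), with 6.21 kb and 5.54 kb under peaks in esiCT A and B against 4.49 kb and 3.24 kb in esiHDAC4 A and B. BCL3, an NF-kB co-activator, was next (chr19:44717677-44755702, 38.0 kb), with 10.4 kb and 9.85 kb against 5.58 kb and 7.89 kb. ERCC1, a nuclease subunit of nucleotide excision repair that acts on platinum adducts, followed (chr19:45423765-45456611, 32.9 kb), with 6.95 kb and 6.42 kb against 4.70 kb and 3.66 kb. In all 3 the esiHDAC4 library had fewer bp under peaks than the esiCT library of its letter. The highest summit fold did not fall in every case. At GNG12 it was 6.447 and 4.914 in esiCT A and B against 5.893 and 4.631 in esiHDAC4 A and B. At BCL3 it was 7.351 and 5.605 against 7.971 and 5.292, and at ERCC1 8.409 and 4.845 against 7.575 and 8.07.

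Transcription factor genes were among the lost SEs. CUX1, a homeodomain factor, had 3.25 kb and 2.15 kb under peaks in the esiCT libraries against 0.645 kb and 1.52 kb (chr7:101856210-101882931). Its highest summit fold was 4.68 and 5.935 against 5.25 and 6.077, higher in the esiHDAC4 library of both letters. FOSL2, an AP-1 subunit, had 6.44 kb and 3.33 kb against 3.39 kb and 2.70 kb (chr2:28389881-28410279), and its summit fold was 9.99 and 4.65 against 5.57 and 5.27. The SE named by KLF5, a factor of intestinal crypts, lay 266 kb from its start site (chr13:73325002-73341721), with 4.41 kb and 3.52 kb against 1.58 kb and 2.39 kb. The highest summit fold in the KLF5 SE was 5.611 and 4.397 against 5.273 and 4.426. No other library of the series called the KLF5 SE.

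Signalling genes included CAMK2N1, an inhibitor of the kinase CaMKII (chr1:20476732-20502210), with 6.65 kb and 3.73 kb under peaks against 1.99 kb and 2.64 kb. ID3, an inhibitor of basic helix-loop-helix factors, had 5.75 kb and 5.38 kb against 2.65 kb and 5.54 kb (chr1:23548055-23562373), so that the B libraries did not differ in the direction of A. An SE named by TGFBR2, 314 kb from its start site (chr3:30281603-30292760), had 3.01 kb and 2.43 kb against 0.457 kb and 1.58 kb. The remaining SEs of the 10 longest were named by KIF20B, NBPF1, SSC4D, NDRG1, MTHFD1L and ARF6, with spans between 26.0 and 30.7 kb, and NBPF1 belongs to a duplicated gene family. In each of these 6 the bp under peaks was lower in esiHDAC4 in both letters. When an SE had to cover 50% of the region, the calls of 7 of the 10 longest ended, and those of GNG12, ERCC1 and CUX1 did not.

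The 4 gained SEs held more separate peaks in the silenced arm, with medians of 3.5 in esiCT A, 5.5 in esiHDAC4 A, 3 in esiCT B and 6.5 in esiHDAC4 B, while the bp under peaks moved in both directions. The largest covered CLDND1, a claudin-like gene, and GPR15, a chemoattractant receptor of T cells in the gut (chr3:98511683-98591821, 80.1 kb), with 42.9 kb and 46.0 kb under peaks in the esiCT libraries and 30.5 kb and 44.5 kb in the esiHDAC4 libraries, and each of the 12 other libraries called an SE there. HM13, a signal peptide peptidase gene, had 15.3 kb and 14.9 kb against 11.8 kb and 13.8 kb (chr20:31558580-31576435), and 9 of the 12 called it. In both, the newly called SE had fewer bp under peaks than in the control arm. SEMA3A, an axon guidance ligand gene, had 1.43 kb and 0.944 kb against 1.78 kb and 2.25 kb (chr7:84017899-84027381). PFKP, a phosphofructokinase gene of glycolysis, had 2.09 kb and 1.87 kb against 2.07 kb and 2.30 kb (chr10:3089706-3096751). Peaks numbered 2 and 1 against 4 and 4 at SEMA3A, 2 and 2 against 4 and 4 at PFKP, 5 and 4 against 7 and 9 at HM13, and 24 and 20 against 24 and 31 at CLDND1. SEMA3A was the 1 gained SE with more bp after silencing in both letters, and its call ended when an SE had to cover 50% of the region.

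Peak and SE changes overlapped at few places. Of the 1424 lost peak regions, 39 (2.74%) lay in a lost SE, beside 1.29% of all peak regions, and 113 (7.94%) lay in an SE common to the 4 libraries, beside 9.79% of all. Of the 271 gained peak regions, 1 lay in a gained SE, 1 in a lost one and 32 (11.8%) in a common one. SE regions of any kind held 21.5% of lost, 20.7% of gained and 22.3% of all peak regions.

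Regions called in all 4 libraries gave a fold in each and so allowed a test of strength. The fold was that of the highest peak of the region in each library. These regions were up to 102120 bp wide, so the highest peaks may lie at different positions. A region without a peak in 1 of the 4 libraries was not tested, so losses below the calling threshold are outside this test. The summit fold was compared on the log2 scale with limma, with the letter as a block, after each library was centred on its median over the 10319 regions. Before centring the median was lower in the esiHDAC4 library by −0.23 in A and −0.08 in B, and differences below are relative to that shift. None passed an adjusted p of 0.05 (limma, Benjamini-Hochberg), 0% higher and 0% lower, with a lowest adjusted p of 0.345. At an unadjusted p under 0.05 there were 330 higher and 252 lower regions (limma), and without centring 70 and 718 (limma), so that the near balance rests on the centring. In simulated data of the same size and spread, 50 regions were changed by each of 0.5, 1, 1.5 and 2 on the log2 scale. There limma called 70% of regions changed by 1 and 98% of those changed by 1.5, but 6% of those changed by 0.5. The adjustment of p is milder when many regions change together. These rates therefore do not hold for a few isolated changes, which were not simulated. Differences of 90% of the regions lay between −0.42 and 0.45 (log2), with a median SE of 0.26.

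The sign of the difference was shared by the letters in 5205 of 10319 regions (50.4%), with 2670 higher in both and 2535 lower in both. Regions that differed by at least 0.5 (log2) in both letters numbered 90 higher and 72 lower. Start-site regions had a median difference of −0.02 and distal ones of 0.06 (log2). The scatter of A against B is a round cloud around 0.

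**Figure D4:**
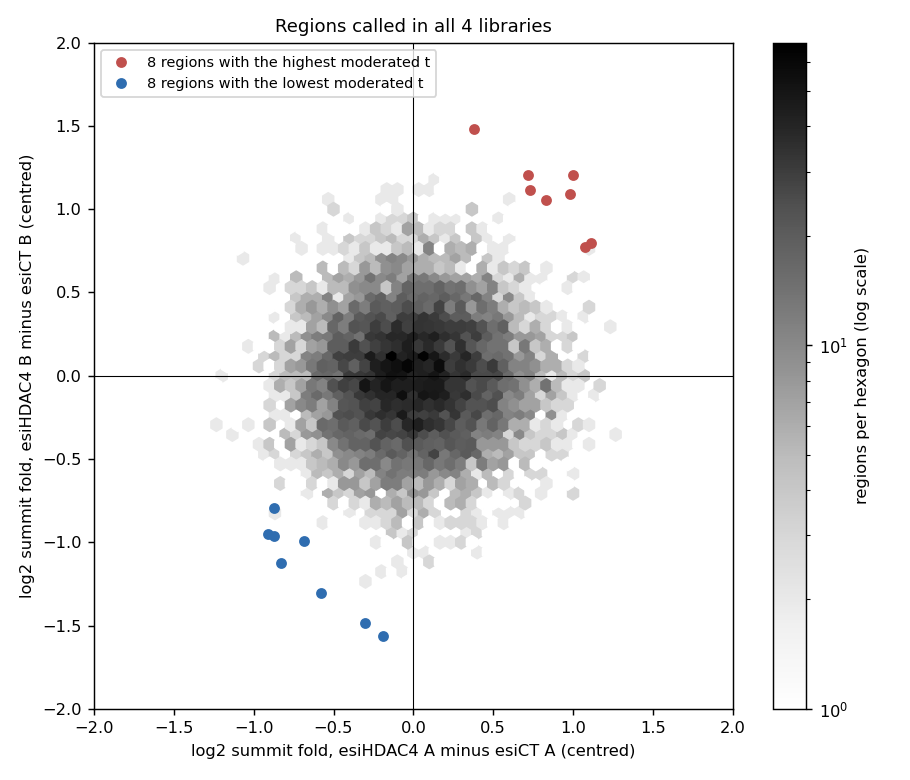
Difference in log2 summit fold between esiHDAC4 and esiCT, each library centred on its median, in replicate A (x axis) and replicate B (y axis) for the 10319 regions called in all 4 libraries, as hexagons shaded by the number of regions on a log scale, with the 8 highest (red) and 8 lowest (blue) regions by moderated t. The cloud has no slope, the letters share a sign in 50.4% of regions, and the coloured regions lie at its corners without passing an adjusted p of 0.05.

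Of the 8 regions with the highest moderated t, the first was 45.3 kb from HMGA2, an architectural chromatin protein (chr12:65777606-65779141). Its folds were 2.62 in esiCT A, 4.45 in esiHDAC4 A, 2.69 in esiCT B and 5.89 in esiHDAC4 B, a difference of 1.10 ± 0.26 (log2, SE, n = 2 letters) with an adjusted p of 0.345 (limma). Both esiHDAC4 values exceeded both esiCT values. TRPV2, a cation channel gene, had a region 5.74 kb away (chr17:16437982-16438712) with 3.65 and 6.12 in A and 3.88 and 7.85 in B, a difference of 1.04 ± 0.26 with an adjusted p of 0.431 (limma). The others were at TMEM238, NSMCE2, ZMAT2, CHCHD2, CCDC77 and REEP3, with differences between 0.92 and 0.96 and an adjusted p of 0.431 in each (limma).

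At the low end, the start-site region of TEX264, a receptor for the turnover of the endoplasmic reticulum (chr3:51671093-51672180), had folds of 7.76 in esiCT A, 3.72 in esiHDAC4 A, 6.24 in esiCT B and 2.71 in esiHDAC4 B. The difference was −0.98 ± 0.26 (log2, SE, n = 2 letters) with an adjusted p of 0.431 (limma). EWSR1, an RNA-binding protein, had 9.40 and 4.25 in A and 5.98 and 2.94 in B at its start site (chr22:29266611-29269959), a difference of −0.93 ± 0.26 with an adjusted p of 0.431 (limma). CIRBP, a cold-inducible RNA-binding protein, had 8.47 and 5.84 in A and 6.24 and 2.12 in B, a difference of −0.89 ± 0.26 with an adjusted p of 0.584 (limma). The other 5 were named by FOXD4L5, FHIP2A, RAMP1, PDE8A and TES, with differences between −0.94 and −0.83.

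The 12 other libraries of the series form 6 pairs of esiHDAC4 and esiCT with the same genotype, treatment and letter, none of which entered the choice of regions. Gained regions were called in more esiHDAC4 than esiCT libraries in 57 cases, in more esiCT libraries in 74 and in equal numbers in 140, of which 111 were called in none of the 12. As shares, 21.0% favoured esiHDAC4 and 27.3% esiCT, beside 22.6% and 24.98% of all 38709 regions. Lost regions favoured esiHDAC4 in 393 cases and esiCT in 420, or 27.6% and 29.5%. More gained regions leaned toward esiCT than toward esiHDAC4, the arm that had called them, but so did all regions, with shares near these. Among lost regions both shares were above those of all regions.

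The pairs followed the length of their own lists, except for gained regions in KO OXPT B. In WT OXPT A, 28.8% of gained regions were called with esiCT and 16.6% with esiHDAC4, beside 41.2% and 33.8% of all regions, and in WT OXPT B the shares were 6.64% and 15.1%, beside 17.6% and 30.7%. In KO UNT A, 31.5% of lost regions were called with esiHDAC4 and 12.9% with esiCT, beside 36.0% and 22.2% of all. The esiHDAC4 library of KO UNT B had 1752 peaks, the fewest of the 16, and it called 3 lost and 3 gained regions. Without that pair the counts were 59 and 72 for gained regions and 397 and 408 for lost ones. Of the strongest members, PTPN23, ALG10, FAM25C and KCNIP1 were called in none of the 12, while the lost regions of CHCHD4 with TMEM43 and of SLC6A9 were each called in 3 of 6 esiCT and 3 of 6 esiHDAC4 libraries. That of CDKN2AIP was called in 2 and 2. The strong lost regions of DVL1, MATN1, FOXD4L5, MIB1, NOL9 and MIB2 were called in more of the other esiHDAC4 than esiCT libraries. That of CSTF3 was called in 2 of 6 esiCT and 0 of 6 esiHDAC4 libraries.

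**Figure D5:**
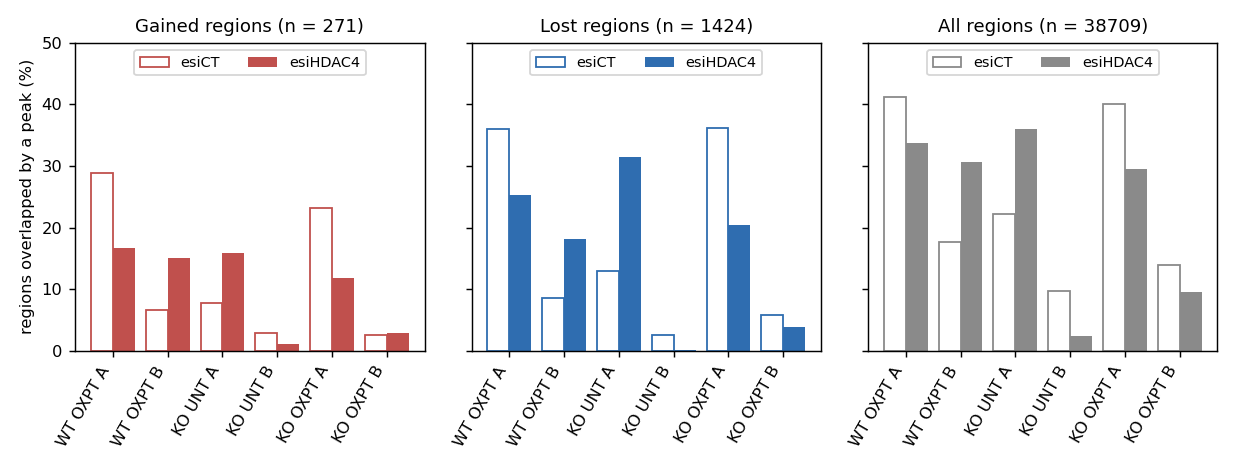
Share of gained, lost and all regions overlapped by a peak in the esiCT (open bars) and esiHDAC4 (filled bars) library of the 6 other pairs of genotype, treatment and replicate letter. The arm with the taller bar is the same for gained, lost and all regions in each pair except KO OXPT B, where gained regions have 2.58% with esiCT and 2.95% with esiHDAC4.

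In the other pairs, lost SEs were split about evenly, with 18 called in more esiHDAC4 libraries, 20 in more esiCT libraries and 62 in equal numbers, 44 of these in none of the 12. Over all 1450 SE regions the counts were 266, 446 and 738. The arm that called more lost SEs was the one that called more of all SE regions in each of the 6 pairs. In WT OXPT A 13 of the 100 lost SEs were called with esiCT and 22 with esiHDAC4, beside 24.0% and 34.8% of all SE regions, and in WT OXPT B 3 and 12, beside 17.3% and 26.3%. In KO UNT A the counts were 7 and 19, beside 17.7% and 28.8%, and in KO OXPT A 35 and 14, beside 48.7% and 23.1%. In KO UNT B and KO OXPT B 2 and 8 were called with esiCT and 0 with esiHDAC4, beside 16.3% and 24.8% of all SE regions with esiCT and 3.79% and 11.03% with esiHDAC4.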

How the data were processed

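H3K27ac ChIP-seq of 4 libraries was compared, 2 WT esiCT UNT and 2 WT esiHDAC4 UNT, grouped by the labels. The authors cut adapters off paired reads (Trimmomatic 0.39), mapped the reads to hg38 (Bowtie2 2.4.4), dropped duplicates (SAMtools 1.18), called peaks per library with MACS2 2.2.7.1 and stitched SEs with ROSE (versions per the submitters' processing notes). The deposited peak lists give the summit fold over background as a ratio, p-values and q-values as −log10, and a score made from q, which was not used. The deposited SE lists give positions only. The study kept SEs that also carried H3K4me1, and the sources used here do not say whether these lists had passed that filter. Read totals are not in these lists, so depth was recovered by solving fold and p for whole summit reads (tolerance 0.01 on −log10 p, solved for 99.5 to 100% of peaks). In esiCT B the pileup was scaled by 0.968.

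Lists were merged at 1 bp of overlap and named from protein-coding genes of GENCODE version 44. Sequences and motif matches came from hg38. Positions count from 1. Summit fold in regions called in all 4 libraries was tested with limma 3.58.1 in R 4.3.3, with the letter as a block after the study's own design, and the same fit was tested on simulated data. The correlation of the A minus B differences of the 2 arms was 0.317, from 1 pair of letters. Numbers of peaks and SEs were compared with an exact permutation test. Python 3.11.15, SciPy 1.17.1 and bedtools 2.31.1 were used. p-values measure only the spread between these libraries. Named regions were the 10 strongest gained and lost peak regions by mean log2 fold, the 10 longest gained and lost SEs (4 gained exist), the 8 highest and 8 lowest common regions by moderated t, list genes with a gained or lost region, and HDAC4, FBXW7, RNF43, NR4A2, PMAIP1 and BBC3. FBXW7 had 1 peak in each library, and NR4A2 had 5 and 5 in esiCT and 8 and 6 in esiHDAC4. The start-site fold of FBXW7 was 5.04 and 2.79 in esiCT against 3.27 and 3.25 in esiHDAC4. That of NR4A2 was 5.53 and 5.17 against 5.61 and 8.01. SEs at FOSL2, KLF5, CAMK2N1, ID3 and TGFBR2 were chosen after their values were seen. The members and gene lists were chosen with earlier results of these data known. Alternatives covered thresholds, list length, overlap, merging, normalization, the block and each replicate left out. The scaling of summit reads to the shallowest library and the omission of the KO UNT B pair were chosen after seeing the data. Some items that the rule names are not reported here.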

Additional observations from a re-analysis of the deposited data

How the results depend on the processing

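Lost peak regions outnumbered gained ones under each alternative threshold, merging rule and scaling tried. With −log10 q of at least 10, 9 gained and 894 lost regions remained, of which 55.6% and 73.5% lay at start sites. With lists of equal length 919 were lost, with 361 gained. With start sites taken to 2.5 kb, the start-site share of lost regions was 49.7%, and with summit reads scaled to the shallowest library, an alternative added after seeing the data, it was 53.25%, with 231 gained and 1123 lost regions. When an SE had to cover 50% of the region, 7 SE regions were gained. Leaving out 1 letter left 1 library an arm and gave 2966 to 7279 gained and 6081 to 12417 lost peak regions, so that the order turned without replicate A. It gave 86 to 99 gained and 347 to 577 lost SE regions, and a log2 ratio of −0.46 to 0.11 for the number of peaks and −0.71 to −0.57 for SEs. Without the replicate block the exact permutation p was 0.667 for the number of peaks and 0.667 for that of SEs, and limma again called 0 regions higher and 0 lower, with 117 and 83 at an unadjusted p under 0.05, while without centring these were 70 and 718. The other limma fits, including each library left out with no block, also called 0, with lowest adjusted p between 0.225 and 0.9998. Of 250 values for the 34 named gained and lost regions under these alternatives, 215 were as in the comparison reported, 35 moved toward 0 and 0 turned sign. Part of the 215 was fixed in advance. Leaving out 1 letter cannot change the value of a region called in both libraries of 1 arm only. The rule that peaks cover 50% of the shortest calling peak cannot change a call either, so these values say nothing about stability. The 35 were 10 gained and 7 lost peak regions with −log10 q of at least 10, 2 gained and 5 lost ones with peaks within 500 bp merged, 1 gained and 1 lost one with regions from all 16 lists, 1 gained and 7 lost SEs with 50% coverage, and the MTHFD1L SE with neighbouring SEs merged. The causes were not tested. Shallow libraries limit what an absent peak shows.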

Other observations

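Several genes named more than 1 lost region, chosen here after their values were seen. GPR37L1, RAD51B, RAP1GAP2, SHB and SPATA31A6 each named 4, and HMGA2, IRS1, PTK2, MYOF, PHLDA1, TEAD1 and DLX2 were among those that named 3. IRS1, an adaptor of the insulin receptor, and PTK2, the focal adhesion kinase, also named a lost SE. The common region with the highest moderated t was named by HMGA2 as well, so that the same neighbourhood held lost regions and a common region with higher fold in both esiHDAC4 libraries.

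Other lost SEs lay near genes of signalling, again chosen after their values were seen. The SE named by NOTCH1, 21.7 kb from its start site, had 3.83 kb and 3.02 kb under peaks in the esiCT libraries against 2.14 kb and 2.28 kb in the esiHDAC4 libraries. DUSP6, a phosphatase of the ERK pathway, named one 358 kb away with 2.61 kb and 2.79 kb against 1.80 kb and 1.84 kb. CREB1, a cAMP-responsive factor, had 2.86 kb and 1.78 kb against 1.03 kb and 1.74 kb. No other library of the series called the DUSP6 or CREB1 SE, and the NOTCH1 one was called in 2 of 6 esiCT and 2 of 6 esiHDAC4 libraries.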
